A study of Homo sapiens with 12 samples.

Results

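The 10 genes described here encode inflammatory signals and products of the transcription factor NF-kB, measured in SHEP cells, a human neuroblastoma line with mesenchymal features. They are the chemokines CXCL1, CXCL2 and CXCL8, the cytokines IL11 and LIF, the NF-kB subunit RELB, the inhibitors NFKBIA and TNFAIP3, the mitochondrial enzyme SOD2 and the receptor TLR1. They were taken by symbol from the deposited table of 28576 genes, and each of the 10 had 1 row there. They were selected on their levels and fold changes between the 4 groups in these same libraries, so those values are given as a description, without a test. All 10 were among the 18674 genes that passed the filter on low values.

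All 12 libraries came from SHEP cells that carried MYCN-ER, a fusion of the MYCN oncoprotein with an estrogen receptor domain that 4-hydroxytamoxifen (OHT, 200 nM) activates. All also carried a short hairpin RNA against TCEAL1, a transcription elongation factor A-like gene, which doxycycline (Dox, 1 µg/ml) induces. There were 3 libraries each of cells given both compounds (OHT_Dox), OHT alone (OHT), Dox alone (Dox) and neither compound (Ctrl). Poly(A) RNA was sequenced, with a depth of 44466458 reads in the shallowest library, OHT_Dox replicate 3, and 57694970 in the deepest, Ctrl replicate 3. Cells without the fusion or without the hairpin are not among the samples analysed, so effects of OHT or Dox themselves cannot be told apart from those of MYCN-ER or the hairpin. Treatment times are not given in the sources used here.

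TCEAL1 was lower with Dox, by a log2 fold change of -1.72 ± 0.13 (SE) in Dox against Ctrl and of -1.79 ± 0.13 in OHT_Dox against OHT (limma, adjusted p = 1.52e-07 and 7.79e-08). MYCN, whose reads can come from the fusion, changed by 0.11 ± 0.10 in OHT against Ctrl (limma, adjusted p = 0.518) and fell in OHT_Dox against Dox (-0.34 ± 0.10, limma, adjusted p = 0.0191). The part of that fall in the results below was not tested. All 8 mesenchymal markers were present. Their sum was 3463 to 3708 CPM (the reads of a gene per 1000000 reads of its library) in OHT_Dox, 4044 to 4287 in OHT, 3530 to 3721 in Dox and 4255 to 4560 in Ctrl, so every library with Dox lay below every library without it. VIM gave most of that sum (2223 to 3083 CPM), and the markers did not all follow it. The means of VIM, SNAI2, CD44, FN1 and TWIST1 were lower with Dox in both backgrounds. The mean of YAP1 was higher with Dox in both, that of PRRX1 in Dox against Ctrl alone and that of FOSL1 in OHT_Dox against OHT alone. Of the 7 adrenergic markers 5 were in the table and 4 of these stayed under 1 CPM in every library, while GATA3 stood at 7.30 to 10.1 CPM. Myeloid markers summed to between 259 and 306 CPM, most of it CSF1R (235 to 282 CPM) and most of the rest CD68 (19.9 to 26.4 CPM). The other 5 in the table (PTPRC, CD14, LYZ, FCER1G and ITGAM) stayed under 1 CPM. Lymphoid and endothelial markers summed to at most 0.173 and 0.337 CPM. Epithelial markers, nearly all KRT8 and KRT18, summed to 831 to 954 CPM in OHT_Dox, 1191 to 1249 in OHT, 920 to 941 in Dox and 1321 to 1448 in Ctrl, and the part of the mesenchymal and epithelial sums in the results below was not tested.

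NF-kB dimers are held in the cytoplasm by inhibitors of the IkB family, and signals from receptors such as those for TNF, IL1 or bacterial lipoproteins lead an IkB kinase complex to mark these inhibitors for destruction. The freed dimers then switch on chemokine and cytokine genes together with genes for their own inhibitors, among them NFKBIA and TNFAIP3, which close the loop. Chemokine and cytokine genes of this kind often also need AP-1, and their mRNAs tend to be short-lived because AU-rich elements in the 3′ untranslated region (3′ UTR) recruit decay factors. In mesenchymal tumour lines CXCL1, CXCL2, CXCL8, IL11 and LIF are commonly secreted products.

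Promoter sequences are shown for the 4 cytokine genes that were lower with OHT in both backgrounds (with and without Dox), and for NFKBIA, which holds a word that is also in CXCL1, CXCL2 and CXCL8 but not in IL11, and whose OHT and Ctrl libraries overlapped. They run from 250 bases before to 50 bases after the RefSeq start (GRCh38.p14), 5′ to 3′ on the gene's strand. Capitals mark GGAATTTCC or its reverse complement, a word chosen after these sequences were seen, and the AP-1 motif TGANTCA. The regions are chr4:73869143-73869442 (plus strand) for CXCL1, chr4:74099146-74099445 (minus) for CXCL2, chr4:73740319-73740618 (plus) for CXCL8, chr19:55370414-55370713 (minus) for IL11 and chr14:35404700-35404999 (minus) for NFKBIA.
CXCL1: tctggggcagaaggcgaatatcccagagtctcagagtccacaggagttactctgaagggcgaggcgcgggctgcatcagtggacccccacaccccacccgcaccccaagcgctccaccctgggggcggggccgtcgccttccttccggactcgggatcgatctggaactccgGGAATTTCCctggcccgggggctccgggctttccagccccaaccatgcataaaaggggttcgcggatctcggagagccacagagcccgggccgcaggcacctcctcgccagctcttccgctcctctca
CXCL2: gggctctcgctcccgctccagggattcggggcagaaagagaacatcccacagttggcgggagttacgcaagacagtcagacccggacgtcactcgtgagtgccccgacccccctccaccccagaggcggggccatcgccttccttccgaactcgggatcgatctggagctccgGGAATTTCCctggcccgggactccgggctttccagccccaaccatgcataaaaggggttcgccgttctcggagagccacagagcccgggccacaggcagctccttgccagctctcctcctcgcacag
CXCL8: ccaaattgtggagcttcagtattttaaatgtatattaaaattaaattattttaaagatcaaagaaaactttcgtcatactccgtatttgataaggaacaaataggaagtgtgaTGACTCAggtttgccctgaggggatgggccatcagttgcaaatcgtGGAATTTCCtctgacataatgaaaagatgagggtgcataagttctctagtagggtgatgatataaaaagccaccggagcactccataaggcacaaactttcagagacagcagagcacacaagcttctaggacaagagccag
IL11: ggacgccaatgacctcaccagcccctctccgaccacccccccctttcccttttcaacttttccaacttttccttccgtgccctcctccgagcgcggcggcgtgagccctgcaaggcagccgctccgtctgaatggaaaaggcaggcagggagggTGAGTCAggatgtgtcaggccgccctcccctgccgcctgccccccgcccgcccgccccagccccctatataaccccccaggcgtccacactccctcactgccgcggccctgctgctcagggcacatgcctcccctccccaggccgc
NFKBIA: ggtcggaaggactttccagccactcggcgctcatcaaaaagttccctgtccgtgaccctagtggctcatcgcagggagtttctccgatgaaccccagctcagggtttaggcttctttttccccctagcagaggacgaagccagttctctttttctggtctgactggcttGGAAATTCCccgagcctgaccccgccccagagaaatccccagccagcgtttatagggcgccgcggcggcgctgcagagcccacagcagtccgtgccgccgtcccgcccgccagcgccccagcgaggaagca
Of the 10 genes, 7 had an entry in the RefSeq table used (LIF, RELB and TLR1 had none). The NF-kB consensus, searched on both strands, was found in CXCL1, CXCL2, NFKBIA and TNFAIP3, and in 11.3% of all 35116 promoters of the same length. Its first base lay at position -79 in CXCL1 and -78 in CXCL2, counted from the start site, with a match on the other strand shifted by 1 base. GGAATTTCC, which overlaps the consensus match in CXCL1, CXCL2 and NFKBIA, was also present in CXCL8 (-91), and 0.461% of all promoters hold it. The sequences of CXCL1 and CXCL2 are nearly identical around this word, so their matches are not independent. TGANTCA was found in CXCL8 (-137) and IL11 (-96) and in 7.71% of all promoters. The E-box CACGTG, a word that MYC family proteins can bind, was found in TNFAIP3 (-78) alone among the 7, and in 7.26% of all promoters. These are matches of letters in a window and say nothing about which factor was bound.

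CXCL1, CXCL2 and CXCL8 are ELR chemokines, which draw neutrophils through the receptors CXCR1 and CXCR2, and all 3 were lower with OHT in both backgrounds. CXCL1 stood at 3.94, 3.18 and 2.70 CPM in OHT_Dox, 5.04, 4.56 and 5.06 in OHT, 9.79, 10.4 and 7.78 in Dox, and 14.3, 19.5 and 15.8 in Ctrl. No library of any group overlapped with another group, and the order was OHT_Dox, OHT, Dox, Ctrl. On the log2(CPM + 0.5) scale, which all fold changes here use, the difference ± SE was -1.65 ± 0.14 in OHT against Ctrl and -1.38 ± 0.14 in OHT_Dox against Dox. CXCL1 was also the gene among the 10 with the clearest difference with Dox, at -0.79 ± 0.14 in Dox against Ctrl and -0.52 ± 0.14 in OHT_Dox against OHT. The first 3 of these were past the threshold used for all genes, an adjusted p under 0.05 in limma, under every alternative. The OHT_Dox against OHT difference missed it in the main fit with all libraries. It was past it with a pseudocount of 0.1 (-0.58), TMM (trimmed-mean) rescaling (-0.54), DESeq2 (-0.59) or removal of the GC and length trend (-0.54). So it was with a replicate block (the replicate number as a further term, -0.52). The difference was also past it without OHT_Dox replicate 1 (-0.65), Dox replicate 3 (-0.52), Ctrl replicate 1 (-0.52) or Ctrl replicate 2 (-0.52).

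CXCL8 (IL8) stood at 2.24, 2.50 and 1.66 CPM in OHT_Dox, 2.79, 3.41 and 2.48 in OHT, 5.24, 5.61 and 5.92 in Dox, and 4.55, 8.05 and 5.93 in Ctrl. All 6 libraries with OHT lay below all 6 without it, and the Dox and Ctrl libraries overlapped, as did those of OHT_Dox and OHT. The log2 fold change was -0.95 ± 0.17 in OHT against Ctrl and -1.22 ± 0.17 in OHT_Dox against Dox. In Dox against Ctrl it was -0.10 ± 0.17, within 1 SE of 0. CXCL8 had 74 to 454 reads per library.

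CXCL2 stood at 1.999, 1.89 and 0.900 CPM in OHT_Dox, 0.889, 1.09 and 1.28 in OHT, 2.42, 2.46 and 2.48 in Dox, and 2.87, 2.50 and 2.29 in Ctrl. All 6 libraries with OHT lay below all 6 without it, while in OHT_Dox replicates 1 and 2 lay well above replicate 3, which held 40 reads. The log2 fold change was -0.95 ± 0.19 in OHT against Ctrl. In OHT_Dox against Dox it was -0.54 ± 0.19, past the threshold with all libraries but not without OHT_Dox replicate 3 (-0.27) or Dox replicate 1 (-0.55), 2 (-0.54) or 3 (-0.53), nor with edgeR (-0.57), DESeq2 (-0.58), no filter or only these 2 groups (-0.54 each), nor without both Dox replicate 1 and OHT_Dox replicate 3 (-0.28). OHT_Dox replicate 3 had the strongest trend with GC content of all 12 libraries (Spearman 0.4685 across genes, which are not replicates). With each library's trend with GC content and length removed the value was -0.52, and still past the threshold.

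**Figure D1:**
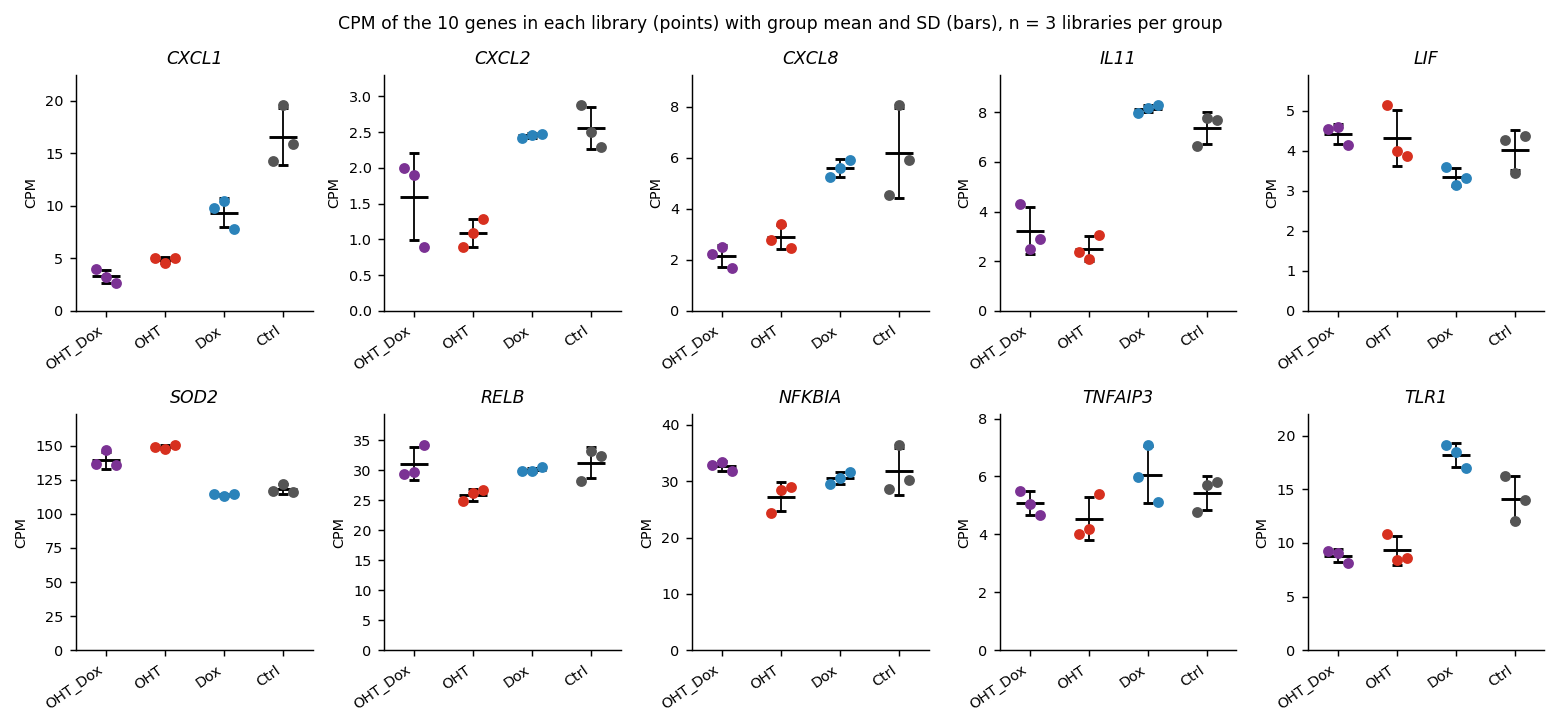
CPM (vertical axes, from 0) of each of the 10 genes in each library (points) of OHT_Dox, OHT, Dox and Ctrl, with bars for the group mean and SD (n = 3). CXCL1, CXCL2, CXCL8, IL11 and TLR1 have all 6 libraries with OHT below all 6 without it, and SOD2 has them all above.

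CXCL5, another ELR chemokine, was by far the most abundant of this group per length of transcript and did not share the pattern. It stood at 117 to 138 CPM in OHT_Dox, 106 to 142 in OHT, 115 to 133 in Dox and 121 to 161 in Ctrl. These ranges overlapped in every comparison, and its log2 fold change was -0.14 ± 0.10 in OHT against Ctrl (limma, adjusted p = 0.359) and 0.02 ± 0.10 in OHT_Dox against Dox (limma, adjusted p = 0.916). Divided by transcript length, mean CPM per kb of CXCL5 was 50.4 in OHT_Dox, 49.8 in OHT, 49.7 in Dox and 54.9 in Ctrl, and that of CXCL1 was 2.98, 4.45, 8.51 and 15.1 in the same groups. CXCL3, a close relative of CXCL2, was low, at 0.742, 0.584, 0.805 and 0.991 CPM per kb in those groups, and did not pass the test in any comparison. Of the 5 ELR chemokines together, CXCL5 made up 87.8% to 90.3% per kb in OHT_Dox, 84.1% to 87.8% in OHT, 76.9% to 77.8% in Dox and 71.2% to 72.3% in Ctrl. The share was higher in every library with OHT than in every library without it. Since CXCL1, CXCL2 and CXCL8 in that sum were selected on their levels in these libraries, this separation is no separate result. CXCL2 shared 23 of its 1144 overlapping 75-base words with CXCL3 and 3 with CXCL1, so a few of their reads are uncertain. No row of the table carries the symbol CXCR1 or CXCR2, so these receptors are not analysed here.

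**Figure D2:**
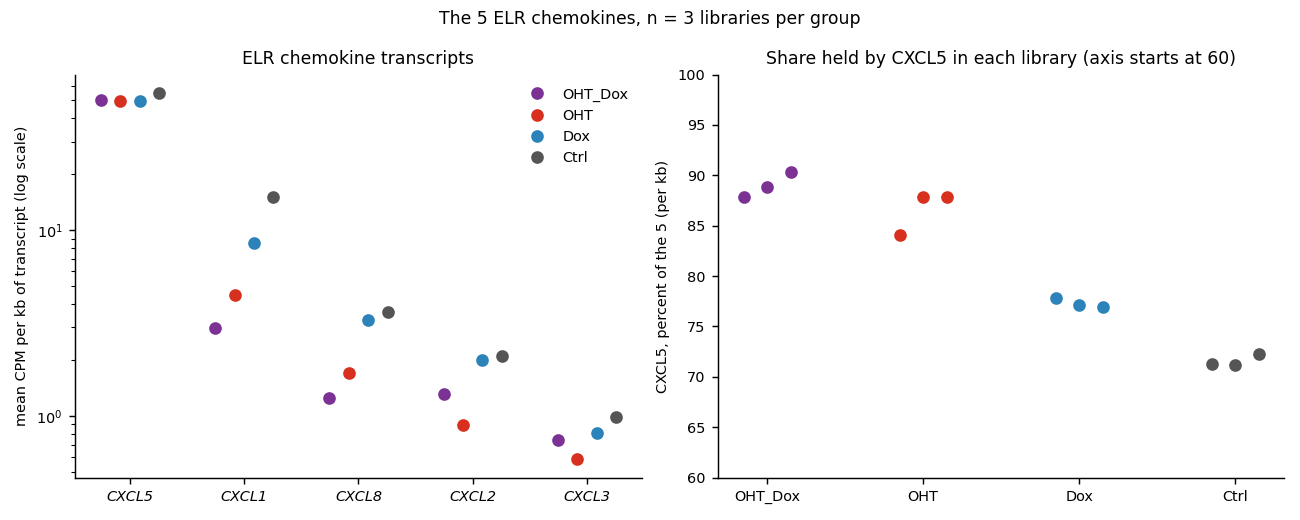
Left, mean CPM per kb of transcript (log scale) of 5 ELR chemokines in OHT_Dox, OHT, Dox and Ctrl; right, the percent of their sum that was CXCL5 in each library, on an axis that starts at 60. CXCL5 differs little between groups while CXCL1 spans 2.98 to 15.1 CPM per kb, so the CXCL5 share is highest in OHT_Dox and lowest in Ctrl.

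IL11 and LIF are cytokines of the IL6 family, which signal through the shared receptor subunit IL6ST (gp130), and here they did not move together. IL11 stood at 4.30, 2.50 and 2.88 CPM in OHT_Dox, 2.36, 2.10 and 3.06 in OHT, 7.98, 8.19 and 8.28 in Dox, and 6.62, 7.77 and 7.70 in Ctrl. All 6 libraries with OHT lay below all 6 without it, and OHT_Dox and OHT overlapped. The log2 fold change was -1.40 ± 0.16 in OHT against Ctrl and -1.24 ± 0.16 in OHT_Dox against Dox, next in size to that of CXCL1 in both. In Dox against Ctrl it was 0.14 ± 0.16, although each Dox library lay above each Ctrl library.

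LIF, which is best known for holding mouse embryonic stem cells undifferentiated, stood at 4.54, 4.58 and 4.14 CPM in OHT_Dox, 5.13, 3.99 and 3.86 in OHT, 3.59, 3.15 and 3.32 in Dox, and 4.26, 3.44 and 4.37 in Ctrl. The OHT and Ctrl libraries overlapped, and the log2 fold change between these groups was 0.09 ± 0.13. The OHT_Dox libraries all lay above the Dox libraries, by 0.35 ± 0.13. That difference missed the threshold with all libraries and passed it without OHT replicate 1 (0.35) or Ctrl replicate 2 (0.35). It also passed with TMM rescaling (0.38), edgeR (0.43), DESeq2 (0.43), a replicate block (0.35) or only the 2 groups compared (0.35). An antisense gene, LIF-AS1, overlaps LIF but had a mean of 0.0325 CPM.

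Receptors and relatives of these cytokines were tested across all genes. CLCF1, another ligand of the family, fell in both backgrounds, at a log2 fold change of -0.68 ± 0.10 in OHT against Ctrl and of -0.56 ± 0.10 in OHT_Dox against Dox (limma, adjusted p = 7.85e-05 and 5.05e-04). IL6ST stood at 128, 136 and 115 CPM in OHT_Dox, 129, 116 and 117 in OHT, 171, 167 and 151 in Dox, and 142, 119.9 and 121 in Ctrl. It fell in OHT_Dox against Dox (-0.36 ± 0.07, limma, adjusted p = 0.00119), and in OHT against Ctrl its value was -0.08 ± 0.07 (limma, adjusted p = 0.525). The difference between these effects did not pass the test (interaction -0.29 ± 0.11, limma, adjusted p = 0.231). IL11RA, the specific receptor subunit for IL11, lay between 4.95 and 8.23 CPM in all libraries and passed the test in no comparison. IL6 itself averaged 0.0897 CPM in OHT_Dox, 0.164 in OHT, 0.253 in Dox and 0.238 in Ctrl, under the filter.

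RELB, NFKBIA and TNFAIP3 are NF-kB target genes that also act on the pathway, and with OHT the fold changes of all 3 were nearer 0 than those of the chemokines in both backgrounds. RELB, the subunit that pairs with the NFKB2 product in the noncanonical branch, stood at 29.4, 29.7 and 34.3 CPM in OHT_Dox, 24.8, 26.2 and 26.7 in OHT, 29.8, 29.9 and 30.5 in Dox, and 28.3, 33.2 and 32.4 in Ctrl. The 3 OHT libraries were the lowest of the 12. The log2 fold change was -0.26 ± 0.08 in OHT against Ctrl and 0.04 ± 0.08 in OHT_Dox against Dox. The difference between OHT and Ctrl was past the threshold with all libraries, and not without OHT replicate 1 (-0.23), Ctrl replicate 2 (-0.22) or Ctrl replicate 3 (-0.24).

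NFKBIA (IkBα), the inhibitor that retains NF-kB in the cytoplasm, stood at 32.9, 33.4 and 31.7 CPM in OHT_Dox, 24.4, 28.5 and 28.97 in OHT, 29.5, 30.7 and 31.6 in Dox, and 28.7, 36.5 and 30.2 in Ctrl. OHT and Ctrl libraries overlapped, and all OHT_Dox libraries lay above all OHT and all Dox libraries. The log2 fold change was -0.21 ± 0.09 in OHT against Ctrl and 0.26 ± 0.09 in OHT_Dox against OHT. The former was short of the threshold with all libraries and past it without Ctrl replicate 1 (-0.28) or with a replicate block (-0.21). RELB gave 0.26 ± 0.08 in OHT_Dox against OHT, past the threshold with a replicate block alone (0.26). Both genes had an interaction of 0.31 (SE 0.11 for RELB and 0.12 for NFKBIA). With each library's trend with GC content and length removed, the interaction was 0.20 for RELB and 0.26 for NFKBIA. The value of RELB in OHT_Dox against Dox was then -0.08. Neither interaction was past the threshold with all libraries, while that of RELB was without Ctrl replicate 1 (0.38).

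TNFAIP3 (A20), a ubiquitin-editing enzyme that shuts off signalling to NF-kB, stood at 5.51, 5.06 and 4.68 CPM in OHT_Dox, 4.03, 4.20 and 5.39 in OHT, 5.98, 7.10 and 5.12 in Dox, and 4.76, 5.71 and 5.82 in Ctrl. The groups overlapped in all 4 comparisons. Its log2 fold changes ran from -0.24 ± 0.14 in OHT against Ctrl to 0.16 ± 0.14 in OHT_Dox against OHT.

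SOD2, the manganese superoxide dismutase of mitochondria and a target of NF-kB, went against the chemokines. It stood at 136, 147 and 136 CPM in OHT_Dox, 149, 148 and 151 in OHT, 114, 113 and 115 in Dox, and 117, 122 and 116 in Ctrl. All 6 libraries with OHT lay above all 6 without it, at a log2 fold change of 0.33 ± 0.05 in OHT against Ctrl and 0.29 ± 0.05 in OHT_Dox against Dox. With Dox it was lower in each background by a small step, -0.05 ± 0.05 in Dox against Ctrl and -0.10 ± 0.05 in OHT_Dox against OHT, with no overlap between libraries. The first of these passed the threshold after each library's trend with GC content and length was removed (-0.26). The SOD2 transcript used for that removal has 14266 bases, 13436 of them 3′ UTR, and the part of this length in the shift was not tested. SOD2 overlaps WTAP, which lies on the other strand and averaged 63.4 CPM, and the strand setting of the counting is not given in the sources used here, so some of its reads are uncertain. Of 17 other genes for superoxide and peroxide detoxification, 1 rose and 3 fell in OHT against Ctrl, and without OHT replicate 1 or 3 or Ctrl replicate 2, 1 rose and 1 fell. TXNRD1, cytosolic thioredoxin reductase, rose (0.25 ± 0.05, limma, adjusted p = 0.00136) and GPX8, a peroxidase of the endoplasmic reticulum, fell (-0.47 ± 0.07, limma, adjusted p = 3.58e-05).

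TLR1, which pairs with TLR2 to sense triacylated lipoproteins, was lower with OHT and highest with Dox alone. It stood at 9.23, 9.07 and 8.10 CPM in OHT_Dox, 10.8, 8.44 and 8.59 in OHT, 19.1, 18.5 and 16.9 in Dox, and 16.2, 12.1 and 13.99 in Ctrl. The OHT_Dox and OHT libraries overlapped, and all 6 lay below the rest. The log2 fold change was -0.58 ± 0.11 in OHT against Ctrl and -1.01 ± 0.11 in OHT_Dox against Dox, with an interaction of -0.43 ± 0.16 that was not past the threshold. The Dox libraries all lay above the Ctrl libraries, at 0.36 ± 0.11. That missed the threshold with all libraries and passed it without OHT_Dox replicate 3, OHT replicate 1 or OHT replicate 2 (0.36 each), and without Ctrl replicate 1 (0.47). It also passed with DESeq2 (0.32), a replicate block (0.36) or only the 2 groups compared (0.36).

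TLR1 overlaps its relative TLR6 on the same strand of chromosome 4 and shares 149 of its 2775 overlapping 75-base words with it, so the counts of these genes are not independent. TLR6 stood at 5.72, 5.40 and 4.81 CPM in OHT_Dox, 6.08, 4.80 and 4.92 in OHT, 11.8, 10.8 and 10.3 in Dox, and 9.53, 7.23 and 8.08 in Ctrl. Its Dox libraries were the highest and those of OHT_Dox and OHT overlapped, as for TLR1, and in each library its CPM was between 56.0% and 61.9% of that of TLR1. TLR6 fell in OHT against Ctrl (-0.61 ± 0.12, limma, adjusted p = 0.00114) and in OHT_Dox against Dox (-0.98 ± 0.12, limma, adjusted p = 6.72e-06), and was chosen for its overlap with TLR1. No row of the table carries the symbol TLR2, so it is not analysed here. Of the 10 tested genes for other Toll-like receptors and their adaptors, 0 rose and 2 fell in each of these comparisons. The other gene to fall was TIRAP, an adaptor of TLR2 and TLR4, in OHT against Ctrl (-0.43 ± 0.08, limma, adjusted p = 7.83e-04) and TICAM2, an adaptor of TLR4, in OHT_Dox against Dox (-0.34 ± 0.05, limma, adjusted p = 1.23e-04).

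**Figure D3:**
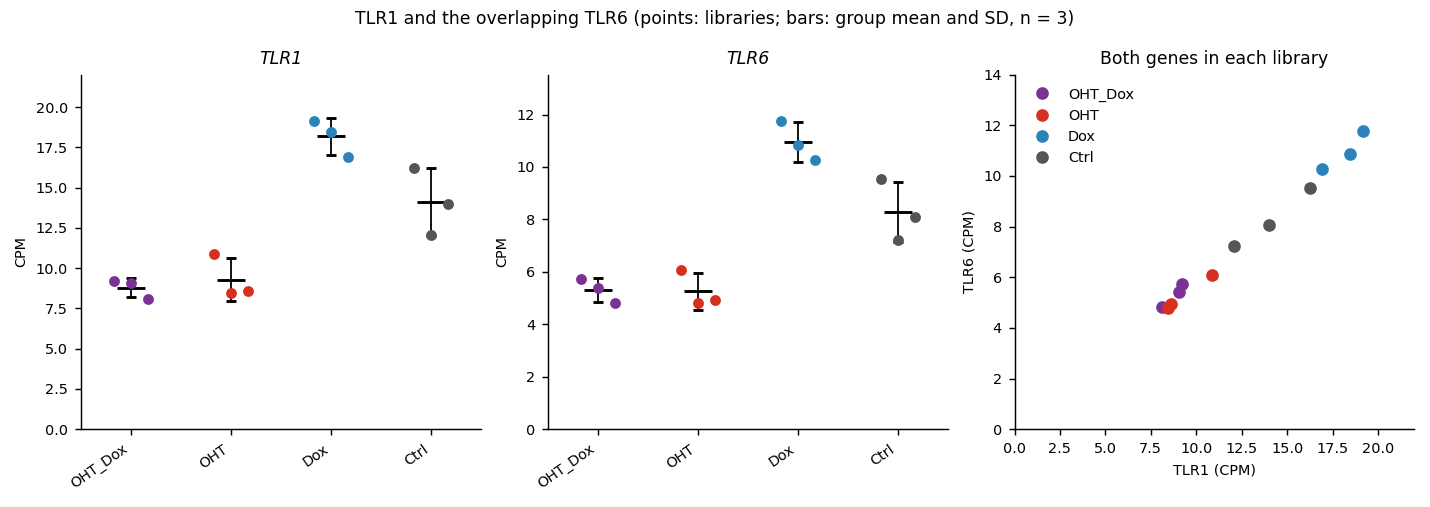
CPM of TLR1 (left) and the overlapping TLR6 (middle) in each library of OHT_Dox, OHT, Dox and Ctrl with group mean and SD (n = 3), and both genes against each other (right). The Dox libraries are highest for both genes, and TLR6 lies at 56.0% to 61.9% of TLR1 in each library.

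Over the 10 genes, 1 was past the threshold as higher in OHT against Ctrl (SOD2), where 12.6% of all genes tested were. As lower there were 6 (CXCL1, CXCL2, CXCL8, IL11, RELB and TLR1), where 8.79% of all genes were, and 7 of the 10 had libraries that did not overlap between the groups, against 34.2% of all genes. In OHT_Dox against Dox 1 was higher (SOD2) and 5 were lower (CXCL1, CXCL2, CXCL8, IL11 and TLR1), where 11.5% and 14.5% of all genes were, and 8 did not overlap, against 41.2% of all genes. In Dox against Ctrl 0 were higher and 1 was lower (CXCL1), where 5.68% and 2.61% of all genes were, and 4 did not overlap, against 28.9% of all genes. In OHT_Dox against OHT 0 were higher and 0 lower, where 0.509% and 1.59% of all genes were, and 4 did not overlap, against 18.7% of all genes. The interaction was past the threshold for 0 of the 10 and for 0% of all genes in limma, where 2879 genes had an unadjusted p under 0.05, and edgeR called 0 genes and DESeq2 1. Since the 10 genes were picked with these comparisons in view, nothing is read from the difference between their counts and the shares over all genes.

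Medians over the 10 genes were -0.42 in OHT against Ctrl, -0.38 in OHT_Dox against Dox, -0.05 in Dox against Ctrl and 0.10 in OHT_Dox against OHT. The medians over all genes tested were -0.01, -0.03, 0.05 and 0.02 in that order of comparisons. OHT against Ctrl and OHT_Dox against Dox share no library, while Dox against Ctrl shares libraries with both, and OHT_Dox against OHT does too. The split of calls over all genes moved with scaling. In OHT_Dox against Dox 2153 genes rose and 2709 fell, and 2553 rose and 2220 fell after TMM rescaling. In Dox against Ctrl 1061 rose and 487 fell, against 519 and 771 after that rescaling and 368 and 711 after removal of the GC and length trend. In OHT against Ctrl 2357 rose and 1641 fell, against 2449 and 2547 after that removal.

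**Figure D4:**
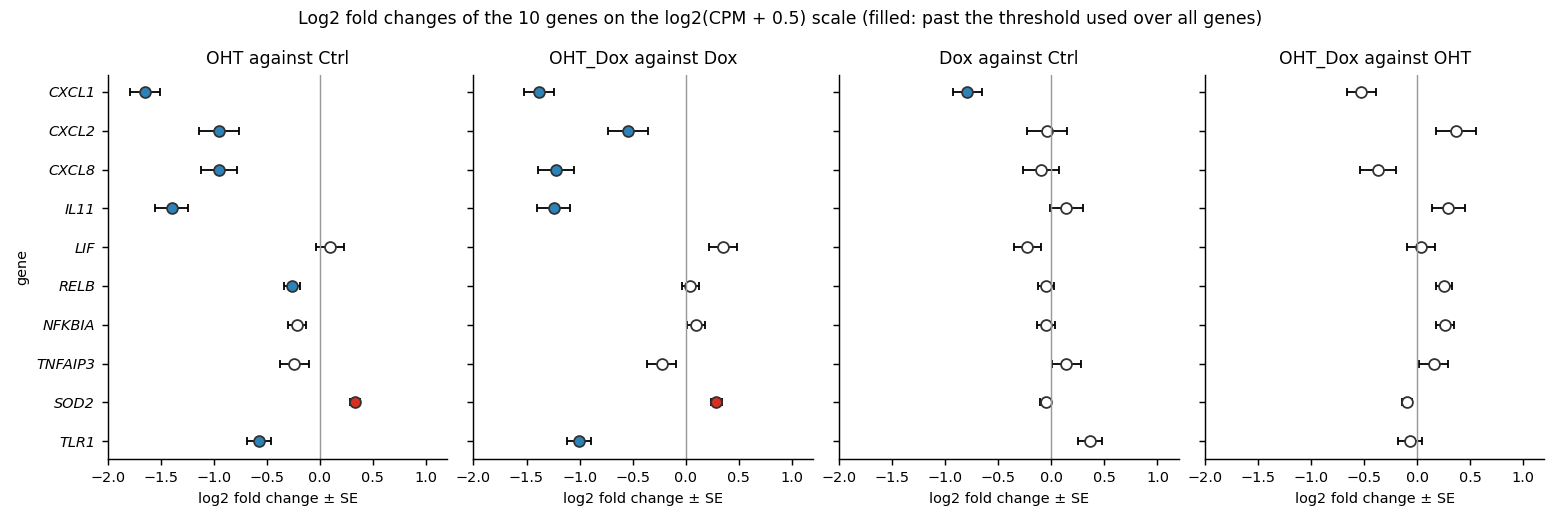
Log2 fold change ± SE (horizontal axes) of the 10 genes in 4 comparisons; filled points were past the threshold used for all genes, blue as lower and red as higher. CXCL1, CXCL2, CXCL8, IL11 and TLR1 lie left of 0 in both comparisons of OHT, SOD2 lies right of it in both, and CXCL1 alone is filled in Dox against Ctrl.

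The lists of the pathway around these genes, 154 tested genes without the 10 themselves, changed in both directions. Some genes belong to several lists, so the counts of single lists below are not independent. In OHT against Ctrl 19 rose and 26 fell, and in OHT_Dox against Dox 14 rose and 40 fell, or 20 and 34 after TMM rescaling. In OHT against Ctrl 12 rose without OHT replicate 1, OHT replicate 3 or Ctrl replicate 2. In the other comparison 8 rose without OHT_Dox replicate 3, and 9 without Dox replicate 1 or 2. The median log2 fold change over the 154 genes was -0.04 in both, beside -0.01 and -0.03 over all genes tested. The lists were drawn up with earlier results of these libraries known, so these counts are a description.

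Among 13 NF-kB subunits, IkB proteins and kinases, 3 rose and 3 fell in OHT against Ctrl, and 1 rose and 2 fell without OHT replicate 1 or Ctrl replicate 3. NFKB1, the gene of p105 and p50, rose to 77.5 ± 2.7 CPM in OHT, against 67.0 ± 3.2 CPM in Ctrl (0.21 ± 0.05, limma, adjusted p = 0.00855). The inhibitor NFKBIE (IkBε) fell to 14.9 ± 0.77 CPM in OHT, against 21.9 ± 3.1 CPM in Ctrl (-0.54 ± 0.09, limma, adjusted p = 3.13e-04). BCL3, an atypical IkB protein that works in the nucleus, fell to 4.27 ± 0.45 CPM in OHT, against 6.75 ± 0.73 CPM in Ctrl (-0.60 ± 0.12, limma, adjusted p = 8.52e-04), and was the member of this list that fell in OHT_Dox against Dox as well under all alternatives (-0.43 ± 0.12, limma, adjusted p = 0.00915). RELA, the main activating subunit, averaged 77.3 ± 3.8 CPM in OHT_Dox, 74.2 ± 1.8 in OHT, 70.2 ± 3.0 in Dox and 70.4 ± 1.5 in Ctrl (SD, n = 3 each), and neither it nor NFKB2 passed the test in any comparison. Of the 13, 1 rose and 3 fell in OHT_Dox against Dox, 4 rose and 2 fell after TMM rescaling, and 0 rose and 1 or 2 fell without OHT_Dox replicate 1 or 3 or without any 1 Dox replicate.

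Upstream of NF-kB, 3 of 28 receptors and proximal signalling genes rose and 5 fell in OHT against Ctrl, and 3 rose and 8 fell in OHT_Dox against Dox. TRAF3, an adaptor that restrains the noncanonical branch, rose in both, by 0.64 ± 0.06 and 0.46 ± 0.06 (limma, adjusted p = 8.67e-08 and 6.23e-06). BIRC2, a ubiquitin ligase of the TNF receptor complex, fell in both, at a log2 fold change of -0.34 ± 0.08 and -0.45 ± 0.08 (limma, adjusted p = 0.00461 and 3.02e-04). Of 14 negative regulators, TRAF3 again among them, 3 rose and 1 fell in OHT against Ctrl, and 3 rose and 4 fell in OHT_Dox against Dox. TNIP1, a partner of TNFAIP3, rose in both (0.25 ± 0.05 and 0.26 ± 0.05, limma, adjusted p = 0.00158 and 8.22e-04). The deubiquitinase CYLD fell in both (-0.40 ± 0.09 and -0.55 ± 0.09, limma, adjusted p = 0.00216 and 1.11e-04).

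Of 34 genes known as NF-kB targets besides the 10, 5 rose and 10 fell in OHT against Ctrl. That list holds NFKB1, BCL3, NFKBIE and TNIP1 again. The counts in OHT_Dox against Dox were 4 and 9, and 2 and 6 without OHT_Dox replicate 3 or without Dox replicate 2. PLAU, the urokinase plasminogen activator, stood at 283, 257 and 271 CPM in OHT_Dox, 441, 380.3 and 354 in OHT, 454, 444 and 469 in Dox, and 613, 578 and 620.4 in Ctrl. Like CXCL1 it was lower with each compound, and it passed the test in all 4 comparisons under all alternatives. It fell, at a log2 fold change of -0.63 ± 0.07 in OHT against Ctrl, -0.75 ± 0.07 in OHT_Dox against Dox, -0.41 ± 0.07 in Dox against Ctrl and -0.53 ± 0.07 in OHT_Dox against OHT (limma, adjusted p = 9.08e-07, 9.95e-08, 0.00158 and 6.81e-05). PTX3, a secreted pattern recognition protein, fell in OHT against Ctrl (-0.62 ± 0.09, limma, adjusted p = 7.83e-05), and CD83, a surface protein of activated dendritic cells, rose in OHT_Dox against Dox (0.49 ± 0.08, limma, adjusted p = 1.78e-04). Of 5 other tested chemokine ligands and receptors, the ligand CXCL16 rose in OHT against Ctrl (0.35 ± 0.09, limma, adjusted p = 0.00678) and the other 4 did not pass the test, though 1 fell without OHT replicate 1. CXCL16 also rose in OHT_Dox against Dox, and 0 fell, and none passed without OHT_Dox replicate 1 or 3 or without Dox replicate 2. Of 16 IL6 family and JAK-STAT genes, 2 rose and 1 fell in OHT against Ctrl, and 0 rose and 4 fell in OHT_Dox against Dox, of which the falls of CLCF1 and IL6ST held under all alternatives. In OHT against Ctrl 0 rose and 1 fell without OHT replicate 1, OHT replicate 3 or Ctrl replicate 3, while 3 rose and 2 fell without OHT replicate 2, and 4 rose and 2 fell without Ctrl replicate 1. The 4 falls in OHT_Dox against Dox were 2 without OHT_Dox replicate 1 or without Dox replicate 2 or 3.

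**Figure D5:**
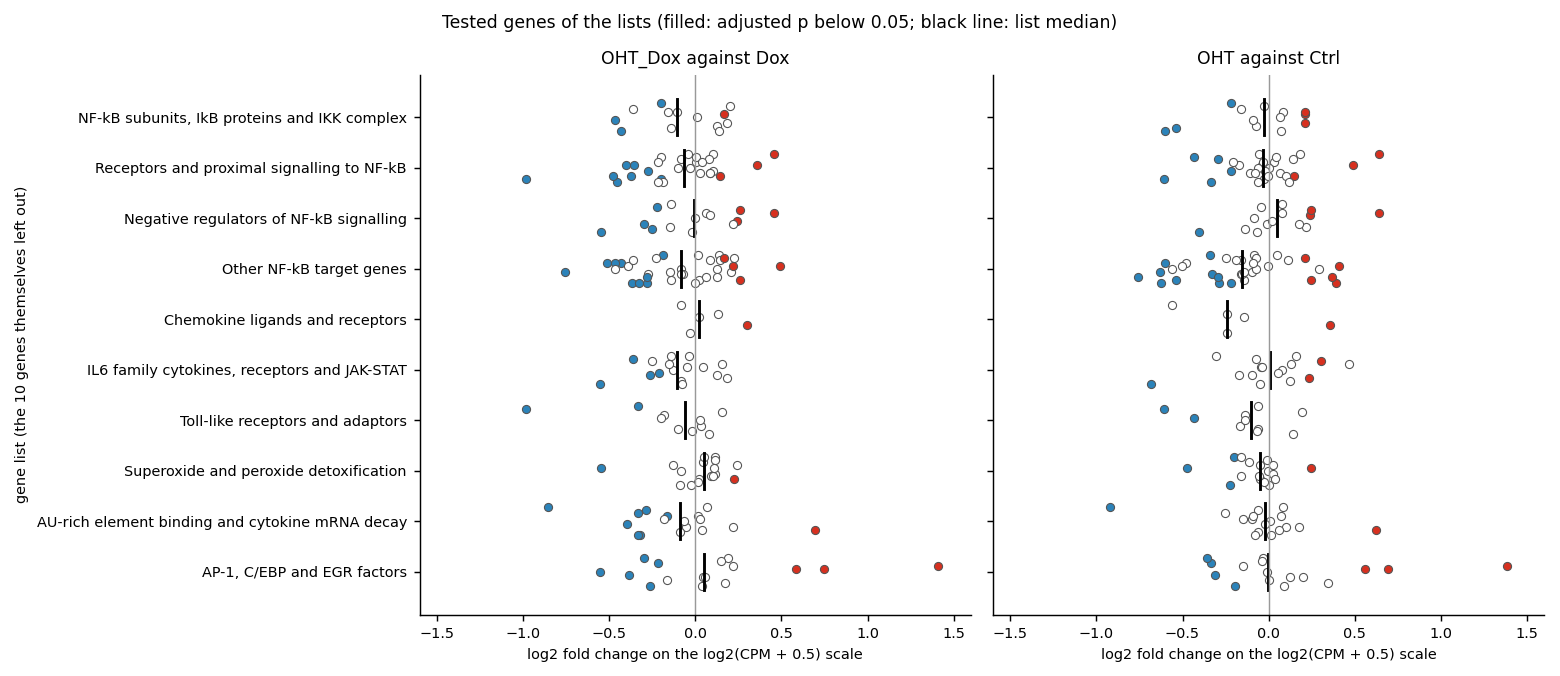
Log2 fold change (horizontal axes) of each tested gene of 10 lists in OHT_Dox against Dox (left) and OHT against Ctrl (right), without the 10 genes themselves; filled points had an adjusted p below 0.05 and black lines are list medians. Each list with more than 1 filled point in OHT against Ctrl, other than the Toll-like receptor list, has filled points on both sides of 0.

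The AP-1, C/EBP and EGR list, whose AP-1 members bind TGANTCA, held the 2 genes of all lists that rose most in both comparisons of OHT, BATF3 and CEBPD. Of 16 genes 3 rose and 4 fell in OHT against Ctrl, and 3 rose and 5 fell in OHT_Dox against Dox (3 and 2 without Dox replicate 2). BATF3, a small AP-1 protein without an activation domain, stood at 14.8, 12.8 and 14.98 CPM in OHT_Dox, 12.2, 11.9 and 12.6 in OHT, 4.64, 5.51 and 4.96 in Dox, and 4.07, 4.86 and 4.26 in Ctrl. It rose by 1.39 ± 0.11 in OHT against Ctrl and by 1.41 ± 0.11 in OHT_Dox against Dox (limma, adjusted p = 1.53e-08 and 1.30e-08). CEBPD, a C/EBP factor of the acute-phase response, rose by 0.69 ± 0.11 and 0.74 ± 0.11 in these comparisons (limma, adjusted p = 1.42e-04 and 5.95e-05). The AP-1 subunit FOSL1 (FRA1) fell in OHT against Ctrl (-0.34 ± 0.06, limma, adjusted p = 3.79e-04), and its relative FOSL2 in OHT_Dox against Dox (-0.39 ± 0.07, limma, adjusted p = 2.01e-04). Each is named only where it was among the 4 called genes of the list with the smallest p. FOSL1 was lower in OHT_Dox as well, at 162.9, 145.5 and 161.9 CPM against 182.5, 186.0 and 177.9 in Dox.

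The 3′ UTRs of the 4 cytokine genes that were lower with OHT in both backgrounds were rich in ATTTA, the core of AU-rich elements. The windows below show 30 bases of each UTR with the most ATTTA, written in DNA letters 5′ to 3′, with ATTTA in capitals (GENCODE 29 transcripts).
CXCL1: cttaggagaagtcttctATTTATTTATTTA
CXCL2: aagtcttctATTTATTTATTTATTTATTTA
CXCL8: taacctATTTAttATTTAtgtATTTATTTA
IL11: ttccaaagccagatcttATTTATTTATTTA
ATTTA occurred 13.9 times per kb of 3′ UTR in CXCL2, 7.19 in CXCL8, 7.08 in CXCL1 and 5.56 in IL11. It occurred 9.35 times per kb in TLR1, whose 3′ UTR has 214 bases, and 5.98 in NFKBIA, 2.68 in SOD2, 2.51 in TNFAIP3, 2.18 in LIF and 0 in RELB. The 3′ UTR of LIF has 3204 bases, and that of the SOD2 transcript used has 13436. LIF held ATTTA 7 times, against 5 in CXCL1, 10 in CXCL2 and 9 each in CXCL8 and IL11. Its richest window of 30 bases held 3, as did those of CXCL1 and IL11. The longer word TATTTAT occurred 5 times in LIF, 4 each in CXCL1 and CXCL8, 7 in IL11 and 8 in CXCL2. The ELR relatives CXCL3 and CXCL5, which passed the test in neither comparison of OHT, held these words too. ATTTA occurred 7 times in the 673 bases of the CXCL3 3′ UTR and 11 times in the 1995 bases of that of CXCL5. That of CXCL1 held 5 in 706 bases. TATTTAT occurred 3 times each in CXCL3 and CXCL5, so these words were not particular to the genes lower with OHT. The median over 12647 tested genes with a 3′ UTR of at least 100 bases was 1.7 per kb, and 9.73% of them had at least 5. Among 17 genes for AU-rich element binding and decay, 1 rose and 1 fell in OHT against Ctrl, and 1 rose and 7 fell in OHT_Dox against Dox. ZFP36 (tristetraprolin), which leads such mRNAs to decay, stood at 2.91, 3.52 and 3.73 CPM in OHT_Dox, 2.81, 2.59 and 2.87 in OHT, 5.44, 7.04 and 7.14 in Dox, and 6.002, 5.14 and 5.84 in Ctrl. It fell, at a log2 fold change of -0.92 ± 0.13 in OHT against Ctrl and of -0.85 ± 0.13 in OHT_Dox against Dox (limma, adjusted p = 3.66e-05 and 7.49e-05). Its relative ZFP36L2 rose by 0.62 ± 0.06 and 0.70 ± 0.06 (limma, adjusted p = 3.36e-07 and 8.74e-08).

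With Dox and no OHT, 17 of the 154 list genes rose and 12 fell, and these counts were unstable. They came to 8 and 8 without Dox replicate 1, 0 and 5 without Dox replicate 2, 10 and 5 without Dox replicate 3, 28 and 19 without Ctrl replicate 1, 2 and 4 without Ctrl replicate 2, and 0 and 4 without Ctrl replicate 3. After TMM rescaling 7 rose and 20 fell. Single calls were followed through the alternatives for at most 4 genes per list, those with the smallest p. Among these, the calls that held under all alternatives were the falls of PLAU, of the endosomal receptor TLR9 (-0.33 ± 0.06, limma, adjusted p = 0.00495), of mitochondrial thioredoxin reductase TXNRD2 (-0.35 ± 0.06, limma, adjusted p = 0.00326) and of the lipid peroxidase GPX4 (-0.35 ± 0.07, limma, adjusted p = 0.00646). In OHT_Dox against OHT 3 of the 154 rose and 4 fell, with 1 and 3 without OHT_Dox replicate 1 or 2, and 0 and 3 without OHT replicate 1. The falls of PLAU, of the hyaluronan-binding protein TNFAIP6 (-1.01 ± 0.17, limma, adjusted p = 0.00246) and of the deadenylase CNOT8 (-0.34 ± 0.06, limma, adjusted p = 0.00302) held under all alternatives. The interaction passed the test for 0 of the 154 list genes, and without Ctrl replicate 1 for 3 in the positive and 9 in the negative direction.

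Genes whose levels ran most like those of the members were sought among 11475 other tested genes whose mean CPM was 5 or more, by Pearson correlation of log2(CPM + 0.5) over the 12 libraries. The libraries fall into 4 groups, and the values below are descriptions that mostly restate the group differences. Nearest to CXCL1 were CCN2 (0.972), FOXD1-AS1 (0.966) and MYC (0.963), and nearest to IL11 were HJURP (0.977), GOLGA2 (0.972) and TENT5B (0.971). Nearest to RELB were SPATA2L (0.943), MSRA (0.93) and ZYX (0.918), lower values than for the other 4 genes looked at. Nearest to SOD2 were AFG3L2, TMEM33 and WASF1 (0.979 each), and nearest to TLR1 were TLR6 (0.996), OSBP (0.983) and KDM6A (0.983). Each library pools many cells, so less RNA per cell and fewer cells with that RNA cannot be told apart. Each CPM is a share of all reads in a library, so a lower CPM can also come with a rise of other RNA.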

How the data were processed

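Poly(A) RNA-seq libraries were made with a directional kit, per the labels' protocols. The deposited values are CPM, and the submitters' processing notes name STAR, featureCounts and hg19, among others, without versions. The strand setting is not given in the sources used here. Every value was a whole multiple of 1 read within 0.01 reads, so whole reads were recovered from the CPM that the authors deposited.

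Genes with at least 0.5 CPM in at least 3 libraries (18674) were fitted with limma 3.58.1 (R 4.3.3) on log2(CPM + 0.5), with 1 mean per group over all 12 libraries and a mean trend. The pseudocount of 0.5 understates fold changes of low genes. Tests are two-sided, adjusted by Benjamini-Hochberg over all genes tested, and a call is an adjusted p below 0.05. Whether the replicates came from separate cultures is not stated, so a p-value reflects library-to-library spread that may be technical.

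The 10 genes, the gene lists and the word GGAATTTCC were chosen with earlier results of these data known. Named list genes were the called genes with the smallest p, at most 4 per list and comparison, and of these the text gives mainly those called under all alternatives. For 5 of the 10 genes, the 3 genes of most similar level with a mean of at least 5 CPM and no clone, LOC or LINC name are given, and CXCL3, CXCL5 and TLR6 are given as relatives. The alternatives were pseudocounts of 0.1 and 1, no filter, TMM rescaling, edgeR 4.0.16, DESeq2 1.42.0, leaving out single libraries or the other groups, a replicate block, and removal of GC and length trends. Leaving out both Dox replicate 1 and OHT_Dox replicate 3 was added after the data were seen. The fitting script was tested on simulated data. Gene structure is from GENCODE 29 (28572 of 28576 identifiers matched) and promoters are from RefSeq (GRCh38.p14), other builds than that of the counts.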

Additional observations from a re-analysis of the deposited data

How the results depend on the processing

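Of 14 calls among the 10 genes, 12 were made under every alternative and all 14 kept their sign. Of 91 calls on named list genes, 51 were made under every alternative and all 91 kept their sign. The counts of genes called in OHT against Ctrl stayed within 1.5 times under all alternatives. In OHT_Dox against Dox they fell to 2988 genes and 34 list genes, against 4862 and 54, without both Dox replicate 1 and OHT_Dox replicate 3. In Dox against Ctrl, 1548 genes were called, 992 with no filter, and 197 to 3182 without single libraries. There 29 list genes were called, 18 after removal of the GC and length trend, and 4 to 47 without single libraries. In OHT_Dox against OHT, 392 genes were called, 680 with DESeq2, 679 after that removal and 200 to 503 without single libraries, and 7 list genes, 11 with DESeq2, 13 after that removal and 3 to 9 without single libraries. The interaction called 0 genes, 1 with DESeq2 and 0 to 1039 without single libraries (1039 without Ctrl replicate 1), with 0 to 12 list genes. The cause of these shifts was not tested.

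The replicate numbers were not taken as pairs in the main fit. Correlations of same-numbered deviations ran from -0.00596 to 0.33, and those of differently numbered ones from -0.262 to 0.0786. By these values 4 of 6 (Dox and Ctrl), 5 of 6 (OHT and Ctrl, OHT_Dox and Dox) or 6 of 6 libraries (OHT_Dox and OHT) were closest to their own number. Whether libraries of the same number share a batch was not tested. With a replicate block more genes were called in all 4 comparisons. The counts were 4528 in OHT against Ctrl and 5422 in OHT_Dox against Dox. They were 2525 genes and 44 list genes in Dox against Ctrl, and 631 genes and 12 list genes in OHT_Dox against OHT. Among the 10 genes the replicate block added calls for NFKBIA in OHT against Ctrl (-0.21), LIF in OHT_Dox against Dox (0.35), TLR1 in Dox against Ctrl (0.36), and CXCL1 (-0.52) and RELB (0.26) in OHT_Dox against OHT, and ended none. CXCL2 rests on as few as 40 reads in a library.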
